A study of Mus musculus with 6 samples.

Results

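The regions described here are stretches of open chromatin that were called in both Input and both PCM1 libraries and in neither Myc library of an Omni-ATAC-Seq experiment on mouse heart nuclei. They were chosen by merging the peak intervals of all 6 libraries into 169872 regions and keeping those with a peak in the 4 Input and PCM1 libraries and none in the 2 Myc libraries. 456 regions met this rule, which is 0.268% of all merged regions. The presence or absence of a peak thus chose them, and their values in the 4 libraries that define them are given as a description, without a test.

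Nuclei came from whole hearts at postnatal day 1 and were purified over a 2.2 M sucrose cushion, which retains mainly cardiomyocyte (CM) nuclei, and 50000 nuclei were used per library. The 3 groups had 2 biological replicates each. Input was the cushion preparation of wildtype hearts with no immunoprecipitation. PCM1 was a wildtype preparation from which nuclei were pulled down by magnet-assisted nuclear immunoprecipitation (MAN-IP) with an antibody to PCM1, a centriolar satellite protein that surrounds CM nuclei. The paper's figure legend names wildtype and Nkx2-5 Cre hearts together. It describes the input sample as an aliquot of the cushion nuclei, with the rest going to MAN-IP for Myc or PCM1. It does not say which hearts each library came from. With Input and PCM1 both wildtype, those libraries may share hearts. Myc was the MAN-IP, with a Myc antibody, of nuclei from Nkx2-5 Cre/+; R26RSun1-Myc-Egfp/+ hearts, in which Cre expressed from the Nkx2-5 gene switches on a Myc-tagged nuclear membrane protein from the ROSA26 locus. No allele or treatment was shared by all 3 groups beyond the age, the tissue and the cushion. The Nkx2-5 Cre lineage holds smooth muscle and endothelial or endocardial cells besides CMs, and PCM1 marks a subset of the cushion nuclei. Input and PCM1 share a genotype that Myc does not, and genotype and Myc antibody cannot be told apart. In these bulk nuclei, fewer cells of a type and less accessibility per cell cannot be told apart either.

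In ATAC-Seq a transposase inserts sequencing adapters where DNA is free of nucleosomes, and a peak is a place where insertions pile up over the local background. Open sites at transcriptional start sites (TSSs) are mostly shared between cell types, whereas distal sites in introns and between genes act as enhancers and differ more. In CMs, such distal elements are bound by factors of the GATA, MEF2, TEAD, NKX2-5, TBX and MEIS families and serve genes for the sarcomere, calcium cycling and fuel use.

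The CM label was checked only at Myh6 and Col3a1, the marker genes whose tracks the paper shows, and rests on these alone here. At Myh6, the CM myosin heavy chain gene, the strongest peak ranked at percentile 99.0 and 98.7 of its library in Input, 99.3 and 99.2 in PCM1, and 88.8 and 92.6 in Myc, where 100 is the peak with the highest -log10 q of the library. At Col3a1, a collagen gene of fibroblasts, the top peak ranked at 61.2 and 55.8 in Input, 33.5 and 12.4 in PCM1, and 75.1 and 61.1 in Myc. In every library the CM gene stood above the fibroblast gene, and the gap was narrowest in Myc.

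6 of the 20 strongest regions are printed so that the DNA at their summits can be read. They were picked after their values were seen, for genes of calcium entry (Cacnb2, Cacna1h), fatty acid oxidation (Etfb) and transcription (Tfcp2l1), and for the high percentiles of Otof and Hspb9. Each is the 201 bases around the summit of the strongest peak on the plus strand of mm10 (GRCm38, RefSeq), named for the gene with the nearest TSS. Capitals mark matches on either strand to the searched motifs that are spelled out further on. No such match falls in the Otof window. The window named for Tfcp2l1 comes from a region whose summit is 128374 bp from the TSS of that gene. The windows are chr5:30442324-30442524 in an intron of Otof, chr2:14882797-14882997 in an intron of Cacnb2, chr17:25410323-25410523 in an intron of Cacna1h, chr1:118756220-118756420 outside any protein-coding gene, chr11:100720544-100720744 in an intron of Rab5c, and chr7:43449583-43449783 in an intron of Etfb.
Otof: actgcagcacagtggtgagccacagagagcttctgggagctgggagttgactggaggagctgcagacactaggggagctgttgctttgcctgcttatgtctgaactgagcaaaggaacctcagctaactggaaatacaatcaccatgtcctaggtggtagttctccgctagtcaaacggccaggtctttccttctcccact
Cacnb2: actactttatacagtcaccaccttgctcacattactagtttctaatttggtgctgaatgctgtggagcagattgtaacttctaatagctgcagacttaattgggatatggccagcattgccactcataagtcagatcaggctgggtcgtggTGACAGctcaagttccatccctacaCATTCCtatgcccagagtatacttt
Cacna1h: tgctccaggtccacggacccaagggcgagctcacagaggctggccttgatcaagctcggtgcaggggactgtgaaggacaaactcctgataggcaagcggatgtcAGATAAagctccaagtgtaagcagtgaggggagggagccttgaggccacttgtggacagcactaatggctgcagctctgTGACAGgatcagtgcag
Tfcp2l1: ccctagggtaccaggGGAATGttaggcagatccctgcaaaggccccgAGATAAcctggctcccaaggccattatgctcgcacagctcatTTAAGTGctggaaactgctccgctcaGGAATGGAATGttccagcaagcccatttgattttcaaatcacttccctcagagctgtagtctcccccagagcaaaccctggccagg
Hspb9: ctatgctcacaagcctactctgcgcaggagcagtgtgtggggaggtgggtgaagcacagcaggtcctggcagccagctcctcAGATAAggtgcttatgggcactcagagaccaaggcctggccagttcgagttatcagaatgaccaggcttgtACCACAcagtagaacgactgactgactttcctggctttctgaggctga
Etfb: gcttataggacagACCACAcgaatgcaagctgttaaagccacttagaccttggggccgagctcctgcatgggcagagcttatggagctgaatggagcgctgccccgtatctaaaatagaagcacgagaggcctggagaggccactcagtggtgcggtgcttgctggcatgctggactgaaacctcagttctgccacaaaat

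Regions of this kind were rare. Of the 51096 regions with a peak in both Input and both PCM1 libraries, 456 lacked a Myc peak, a share of 0.892%. Without Input replicate 2 there were 1377 (2.34%), without Myc replicate 1 or 2 there were 1259 (2.46%) and 1441 (2.82%), and without PCM1 replicate 1 or 2 there were 922 (1.63%) and 944 (1.67%). With all 6 libraries, another 1779 had a peak in only 1 Myc library, of which 798 were in replicate 1 and 981 in replicate 2, and 48861 had a peak in all 6 libraries. The reverse pattern was more frequent, since 3841 of the 60421 regions of both Input and both Myc libraries (6.36%) had no PCM1 peak. A lack of Input peaks was the rarest, at 176 of 54050 regions of Myc and PCM1 (0.326%). List lengths bear on these shares, as the lists hold 131500 and 75336 peaks in Input, 83139 and 81487 in PCM1, and 107216 and 108513 in Myc. With the strongest 75336 peaks of every library, 1248 of 48146 regions of Input and PCM1 lacked a Myc peak (2.59%), against 3.73% lacking PCM1 and 1.14% lacking Input. The order of the 3 shares was the same with equal lists, but those 1248 regions overlapped only 240 of the 456, or 52.6%.

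The regions ranked low in Input replicate 2 and both PCM1 libraries and near the middle of the list in Input replicate 1. Their median percentile was 46.4 and 22.7 in Input and 34.5 and 31.6 in PCM1, and their median fold over the local background was 4.90 and 4.95 in Input and 4.94 and 4.83 in PCM1. The fold is taken after a constant is added to signal and background. It is therefore lower than their plain ratio, most of all at low depth. The strength of a region was taken as its lowest percentile over the 4 libraries. The median strength was 15.1 for the 456 regions (quartiles 7.27 and 26.2, range 0.0677 to 63.0), 18.9 for the regions with 1 Myc peak and 58.3 for the regions of all 6 libraries. When the 51096 regions were ordered by strength and cut into 10 bins of equal size, the share without a Myc peak fell from 4.39% in the weakest bin to 2.15% and 1.53% in the next ones, and was 0.0783% in bin 6. In each of the 4 strongest bins 0 regions lacked Myc, which allows a share of up to 0.0587% when 3 counts are taken as the limit of a count of 0, and of up to 0.0751% by the 95% Wilson interval.

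**Figure D1:**
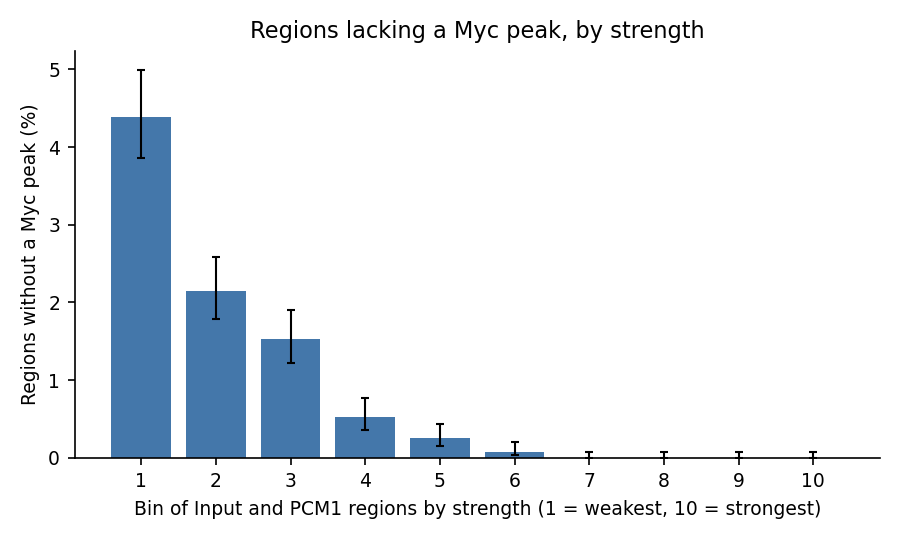
Share of regions with no Myc peak (%) in each of 10 bins of the 51096 regions of Input and PCM1, ordered by strength, with 95% Wilson intervals as error bars. The share is 4.39% in the weakest bin, and no region lacks a Myc peak in the 4 strongest bins.

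Just inside the rule stood regions that were barely called. The weakest was an intronic region of Entpd6, with a strength of 0.0677, followed by one of Cacna1c at 0.0896 and one of Gkap1 at 0.168. Just outside it stood the 1779 regions with a peak in 1 Myc library. There the single Myc peak had a median percentile of 33.1 (quartiles 18.6 and 46.0), a median fold of 4.93 and a median -log10 q of 7.29.

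Depth was compared through the pileup, the number of fragments over a summit, which was solved from the fold and the p-value of each peak. The genome-wide background pileup was 3.96 in Input replicate 1 and 1.02 in replicate 2, 1.44 in each Myc library, and 0.977 and 0.903 in the PCM1 libraries, so Myc was deeper than PCM1 and Input replicate 2 and shallower than Input replicate 1. The 456 regions had a median pileup of 38.0 and 13.0 in Input and 14.0 and 13.0 in PCM1. Over the genome-wide background this was 9.60 and 12.7 times in Input and 14.3 and 14.4 times in PCM1. For each region the lowest pileup over background among the 4 libraries was scaled to the Myc background, which gave a median of 12.9. This was at or above 6, the lowest pileup called in Myc at its background, in 449 regions (98.5%). It was at or above 9, the 5th percentile of all Myc pileups, in 384 regions (84.2%). These pileups come from the libraries whose peaks chose the regions and are set against the genome-wide Myc background. Myc pileups and local background where no Myc peak was called were not analysed here, so whether the regions fell under the threshold in Myc was not tested.

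A set of like strength was drawn for comparison. It holds the 7417 regions of all 6 libraries whose strength lies between the quartiles of the 456, from 7.27 to 26.2. Those regions ranked near the middle of the Myc lists, with a median percentile of 53.2 and 54.1 in Myc, against 63.1 and 25.3 in Input and 37.1 and 34.3 in PCM1. In Input replicate 1 the 456 regions were lower than this set, with a median pileup of 38.0 against 54.0, whereas the medians were equal in the other 3 libraries.

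Most regions stood in surroundings much like those of the like-strength set, but more of them had a high local background, which is the pileup expected around a summit. The median local background was 1.54 and 1.52 times that of the genome in Input and 1.78 and 1.82 times in PCM1, against 1.43 and 1.39 times in Input and 1.49 and 1.51 times in PCM1 in the like-strength set. The local background was above 5 times the genome-wide background at 8.77% and 8.11% of the 456 regions in Input and at 14.0% and 14.9% in PCM1. In the like-strength set these shares were 2.91% and 2.49% in Input, 5.18% and 5.89% in PCM1, and 4.06% and 4.27% in Myc. In all 4 libraries at once it was exceeded by 36 of the 456 regions (7.89%, 95% Wilson interval 5.76 to 10.7) and by 164 of the 7417 (2.21%, 1.90 to 2.57). The regions with 1 Myc peak stood between them, with 83 of 1779 (4.67%, 3.78 to 5.75). The highest value in Input replicate 1 and both PCM1 libraries was in the Myh6 intron, where the local background was 23.1 and 20.4 times that of the genome in Input and 49.3 and 52.3 times in PCM1. Kcnh2, which encodes the hERG potassium channel, followed a like pattern, with 19.2 and 17.9 times in Input and 24.6 and 25.4 times in PCM1. In Input replicate 2 an intron of Sfi1, a centriole gene, was highest at 20.6 times, with 19.8 times in Input replicate 1 and 25.3 and 24.1 times in PCM1. The 36 regions were nearest to 35 genes, of which Myh6 and Kcnh2 were the only 2 on the heart muscle lists described further on and 0 were on the other lists. Of the 440 genes nearest to any of the 456 regions, 5 were on the heart muscle lists and 3 on the other lists. Of all 21853 protein-coding genes, 68 and 111 are. Of the 20 strongest regions, 7 were among the 36, at Ahdc1, Trappc6a, Bcl6, Akt2, Crip1, Cxxc5 and Atf4, beside 7.89% of all 456. Intervals here and elsewhere cover counting error only, since regions of 1 library are not replicates.

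**Figure D2:**
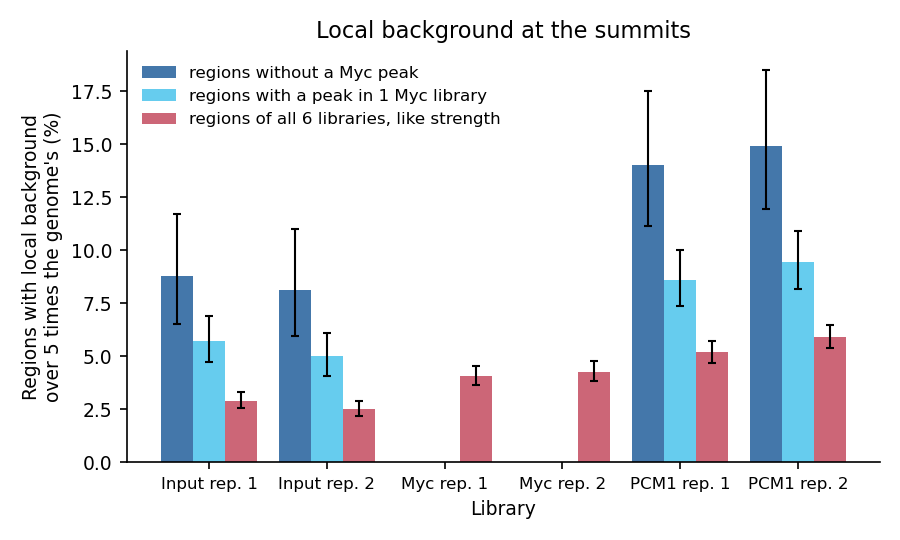
Share of regions (%) whose local background at the summit is above 5 times the genome-wide background of the library, for the 456 regions without a Myc peak, the 1779 with a peak in 1 Myc library and 7417 regions of all 6 libraries of like strength, with 95% Wilson intervals. Only the like-strength set has Myc bars. In the other 4 libraries the share of the 456 is above those of both other sets.

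Most regions lay within 5 kb of a Myc peak without touching one. The median gap to the nearest Myc peak was 2448 bp. It was at most 500 bp in 67 regions (14.7%), at most 1 kb in 26.8% and at most 5 kb in 73.2%. For the reverse pattern, regions of Input and Myc without PCM1, the median gap to the nearest PCM1 peak was 5083 bp, and 7.52% lay within 500 bp. The Myc lists were longer than the PCM1 lists, so these gaps are not on equal terms. With equal lists, 7.45% of the regions without Myc lay within 500 bp of a Myc peak. When a peak had to cover 0.5 or more of its merged region, 49.0% did. No gap was taken for the like-strength set. The 456 regions were scattered, and only 4 lay within 5 kb of another of them. Their share of the Input and PCM1 regions ran from 0.539% on chromosome 3 to 1.31% on chromosome 12 among the autosomes and was 1 of 871 (0.115%) on X. On Y it was 1 of 8. At the genes used to build or purify the nuclei the numbers within 100 kb and 1 Mb were too small to set against 0.892%. Within 100 kb, 0 of 16 Input and PCM1 regions lacked a Myc peak at Nkx2-5, 0 of 8 at Gt(ROSA)26Sor, 0 of 18 at Sun1 and 0 of 5 at Pcm1. Within 1 Mb the counts were 0 of 128, 1 of 62, 1 of 107 and 0 of 31. Within 5 Mb they were 4 of 505 (0.792%), 2 of 236 (0.847%), 3 of 514 (0.584%) and 1 of 144 (0.694%), still few regions at each gene.

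By position the regions were largely intronic. 275 of 456 (60.3%) had their summit in an intron of a protein-coding gene, against 45.4% of the like-strength set, 37.4% of the regions of all 6 libraries and 45.4% of all merged regions. The regions with 1 Myc peak were close to them, with 56.7% in introns and 3.71% within 1 kb of a TSS. Of the 456, 27 (5.92%) lay within 1 kb of a TSS, against 9.99% of the like-strength set and 26.8% of the regions of all 6 libraries. When Myc replicate 2 was left out, the share within 1 kb was 3.89%. Among the 456, 133 (29.2%) were outside protein-coding genes, against 41.4% of the like-strength set. A further 11 lay in coding exons and 10 in untranslated regions. The median distance to a TSS was 21790 bp, against 24997 bp in the like-strength set. The regions had a median length of 416 bp, against 462 bp for the regions with 1 Myc peak, 558 bp for the like-strength set and 377 bp for all merged regions, and a merged region grows with each library that adds a peak.

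**Figure D3:**
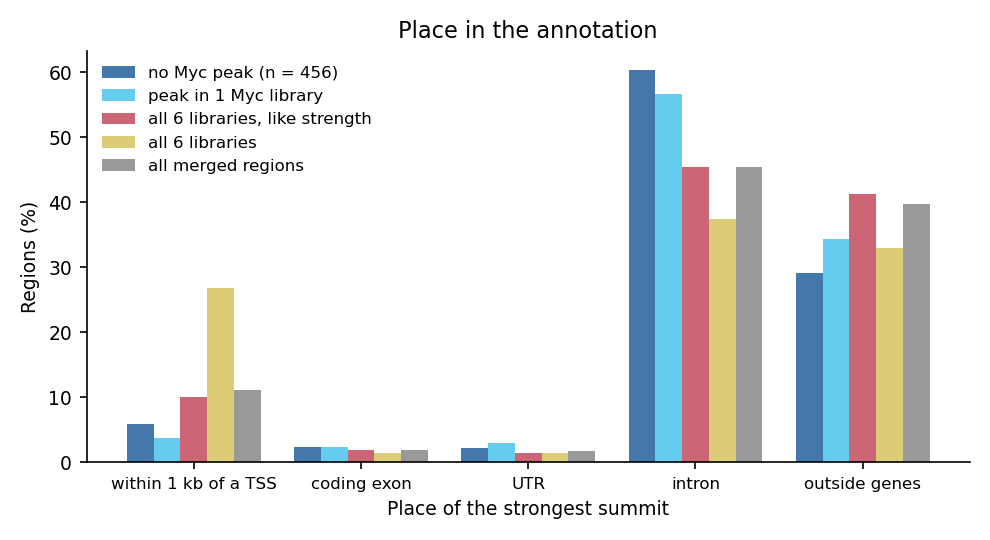
Place of the strongest summit of a region, as a share of the regions (%), for the 456 regions without a Myc peak, those with a peak in 1 Myc library, the like-strength regions of all 6 libraries, all regions of all 6 libraries and all merged regions. Introns hold 60.3% of the 456, 56.7% of the regions with 1 Myc peak and 45.4% of the like-strength set, and places within 1 kb of a TSS hold 5.92%, 3.71% and 9.99%.

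The sequence at the summits was searched for 17 motifs on both strands within 150 bp of the summit. The GATA family was searched as AGATAA, the TEAD factors as GGAATG and NKX2-5 as CACTTAA. MEIS homeodomain factors were searched as CTGTCA, and the runt factors of the RUNX family as TGTGGT. For nuclear receptors the letters were AGGTCA, for the E-box of helix-loop-helix proteins CAGCTG, and for SP/KLF zinc finger proteins GGGCGGGG. MEF2, CTCF and CArG are searched by their longer consensus. A match describes the letters in the window and is not a bound site. The MEIS letters were the most frequent, in 161 regions (35.3%, 95% Wilson interval 31.1 to 39.8), against 27.8% of the like-strength set and 26.5% of all merged regions. The CTCF motif was in 4 regions (0.877%, 0.342 to 2.23), against 4.23% of the like-strength set, 3.29% of all merged regions and 9.09% of the regions of Input and Myc without PCM1. The regions with 1 Myc peak had MEIS letters in 30.8%, just under that interval, and CTCF in 1.46%, inside it. Both shares of the 456 stayed on the same side of these like-strength values under the alternatives run on the peak lists and libraries, with 31.9% to 36.5% for MEIS and 0.481% to 1.32% for CTCF.

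The letters of most other cardiac factors had like-strength shares inside the intervals of the 456. GATA letters were in 74 regions (16.2%, 13.1 to 19.9), against 18.0% of the like-strength set and 17.1% of all merged regions. TEAD letters were in 103 (22.6%), against 21.2%. NKX2-5 letters were in 7 (1.54%, 0.746 to 3.13), against 3.128% of the like-strength set, just inside that interval, and 3.39% of all merged regions, outside it. The nuclear receptor site was in 118 (25.9%), against 22.3%, and the E-box in 134 (29.4%), against 27.3%. MEF2 was in 4 regions (0.877%, 0.342 to 2.23), against 2.62% of the like-strength set, but its share was 2.303% and 2.36% without Myc replicate 1 or 2, 2.18% without Input replicate 2 and 2.06% without PCM1 replicate 1, so the low value rests on few regions. SP/KLF letters were in 12 regions (2.63%), against 5.18% of the like-strength set and 12.1% of the regions of all 6 libraries, but 2.36% of the regions with 1 Myc peak. In that last set MEF2 was in 3.09% and NKX2-5 in 3.71%. For 13 of the 17 motifs the like-strength share lay inside the interval of the 456, and MEIS, CTCF, MEF2 and SP/KLF were the other 4. The 301 bases around the summit had a median GC content of 51.8%, against 50.2% in the like-strength set, and 9.12% of their bases on average were in repeats, against 9.62%.

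**Figure D4:**
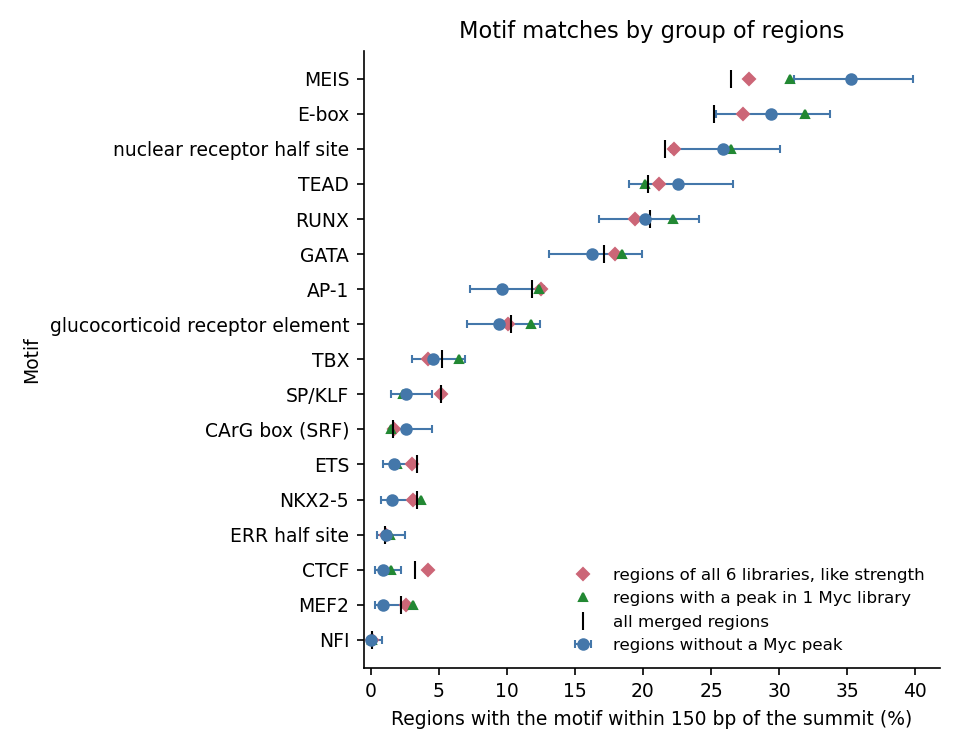
Share of regions (%) with each of 17 motifs within 150 bp of the summit. Circles with 95% Wilson intervals are the 456 regions without a Myc peak, triangles regions with a peak in 1 Myc library, diamonds the like-strength regions of all 6 libraries and bars all merged regions. MEIS is highest in the 456 at 35.3%, and CTCF is at 0.877%, near the 1.46% of the regions with 1 Myc peak.

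The 456 regions were nearest to 440 of 21853 protein-coding genes (2.01%). 425 genes had 1 region, 14 had 2 and Cacna1c had 3. Most of these genes had peaks elsewhere in the Myc libraries. A peak within 1 kb of a TSS was called in both Myc libraries at 380 of them (86.4%), against 84.6% of all 15231 genes nearest to an Input and PCM1 region, and 433 (98.4%) were nearest to at least 1 other region with a peak in both Myc libraries, against 99.7% of those 15231 genes. Of the genes named here, Crip1 and Acta1 had no peak within 1 kb of a TSS in either Myc library, and the region described here was their only one with a peak in both Input and both PCM1 libraries.

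The other regions of these genes lie outside the rule, although they come from the same libraries, and they are described without a test. For each gene the highest percentile over its regions of all 6 libraries was taken in each library. It was lower in both Myc libraries than in all 4 other libraries at 64 of the 427 genes with such a region (15.0%, 95% Wilson interval 11.9 to 18.7), against 7.69% of all 15134 genes. It was higher in both Myc libraries at 89 (20.8%), against 24.6% of all genes. The genes described here had more such regions, with a median of 5 against 2, and the part of this in the shares was not tested. In the settings that left out a library or changed the peak lists, the first share was 13.7% to 26.6%, while that of all genes was 7.71% to 16.3% and was the lower of the pair each time.

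Among the 20 strongest regions, 11 were intronic, 6 lay within 1 kb of a TSS, 2 outside protein-coding genes and 1 in an untranslated region. The strongest was in an intron of Ahdc1, which encodes an AT-hook DNA-binding protein, at chr4:133044318-133044702. Its peak ranked at percentile 63.0 and 66.8 in Input and 69.1 and 70.7 in PCM1, with a fold of 3.75 and 5.905 in Input and 4.71 and 4.94 in PCM1. The local background there was 7.35 and 6.80 times that of the genome in Input and 10.7 and 11.7 times in PCM1, and the nearest Myc peak was 1094 bp away. All 4 libraries thus ranked it in the upper part of their lists.

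The Otof region stood in quiet surroundings. Otof encodes otoferlin, a calcium sensor of vesicle fusion known from hair cells. The peak at chr5:30442036-30442638 ranked at 68.5 and 62.7 in Input and 68.6 and 76.4 in PCM1, with a fold of 10.7 and 10.4 in Input and 10.1 and 12.5 in PCM1. The 4 values lie close together, the local background was between 1.00 and 1.55 times that of the genome, and the nearest Myc peak was 7110 bp away. Syt16, a synaptotagmin gene, held the region farthest from a Myc peak among the 20, at 41106 bp, and its fold was 14.9 and 8.40 in Input and 8.60 and 7.84 in PCM1.

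Several of the 20 lay beside a Myc peak. The gap was at most 500 bp in 7 of them and at most 2 kb in 14. The region 993 bp downstream of the TSS of Slc27a4, a fatty acid transport protein, was 174 bp from a Myc peak and ranked at 60.9 and 56.0 in Input and 63.4 and 55.1 in PCM1. The gap was 492 bp at Akt2, a kinase of insulin signalling, 383 bp at Akap13, an anchoring protein for protein kinase A, 381 bp at Ube2l3, a ubiquitin-conjugating enzyme, and 291 bp at Trappc6a, a vesicle tethering subunit. These 5 regions were all within 1 kb of a TSS, and both Myc libraries had a peak within 1 kb of a TSS of each gene. Whether it was the same TSS was not checked.

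Crip1, which encodes a small LIM-domain protein, had its region 100 bp upstream of a TSS. Its peak ranked at 66.3 and 66.6 in Input and 49.95 and 55.6 in PCM1, with local background 12.2 and 10.4 times that of the genome in Input and 17.1 and 18.3 times in PCM1. Bcl6 and Atf4, which encode a transcriptional repressor and a factor of the stress response, were nearest to regions at distances of 1133 and 4350 bp. The Bcl6 peak ranked at 56.1 and 53.3 in Input and 53.0 and 65.1 in PCM1. The Atf4 peak ranked at 69.3 and 45.5 in Input and 63.4 and 50.9 in PCM1, and its summit lay in an untranslated region of Mief1.

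**Figure D5:**
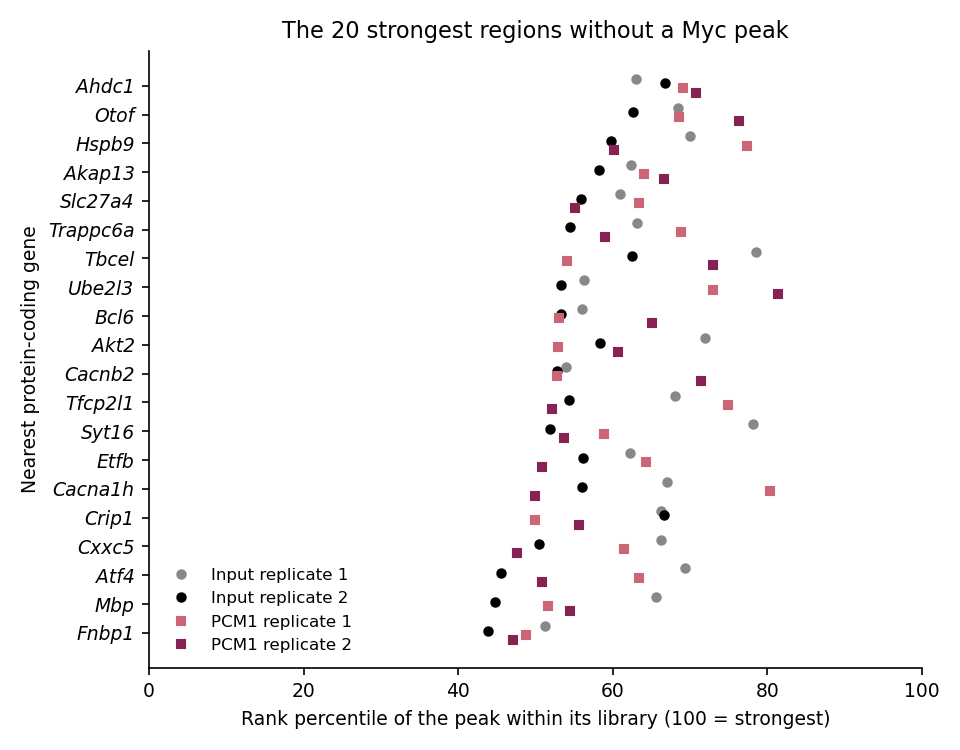
Rank percentile, within its library, of the peak at each of the 20 strongest regions, by nearest gene, with circles for the Input replicates and squares for the PCM1 replicates, spread vertically for legibility. By the rule there is no Myc value. The lowest of the 4 points runs from 63.0 at Ahdc1 to 43.8 at Fnbp1.

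Genes of calcium entry and excitation held several regions. Cacna1c, the pore subunit of the L-type channel that triggers CM contraction, had 3, all intronic, among its 40 regions of Input and PCM1. At the strongest, chr6:118691227-118691859, the peak ranked at 76.5 and 67.4 in Input and 57.4 and 37.1 in PCM1, and the PCM1 replicates differed by more than the Input replicates. At the second, chr6:119018281-119018914, the percentiles were 8.99 and 8.52 in Input and 41.9 and 23.9 in PCM1, higher in both PCM1 libraries. At the last, chr6:119077166-119077625, they were 37.2 and 0.0896 in Input and 40.7 and 46.4 in PCM1, and Input replicate 2 stood far below the rest. The highest percentile of Cacna1c over its 35 regions of all 6 libraries was 99.1 and 98.3 in Input, 99.4 and 99.4 in PCM1, and 95.1 and 96.2 in Myc.

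Cacnb2, which encodes the beta subunit that brings the L-type pore to the membrane, held its region 8476 bp downstream of a TSS. The peak printed above ranked at 54.0 and 52.8 in Input and 52.8 and 71.4 in PCM1, with a fold of 7.12 and 8.05 in Input and 7.41 and 10.8 in PCM1. Cacna1h, the pore of a T-type channel that is prominent in the fetal heart, had its peak at 67.0 and 56.1 in Input and 80.3 and 49.98 in PCM1, so the PCM1 replicates spanned the Input ones. Of 26 genes for voltage-gated calcium channel subunits, a family counted after these values were seen, 3 were nearest to a region (11.5%), with 5 of 129 Input and PCM1 regions (3.88%), beside 2.01% of all genes and 0.892% of all such regions. As the family was chosen for these genes, nothing is read from this count. At Cacnb2 the highest percentile over its regions of all 6 libraries was 97.3 and 93.0 in Input, 98.8 and 96.0 in PCM1, and 93.8 and 94.5 in Myc. At Cacna1h it was 90.3 and 80.6 in Input, 82.0 and 89.4 in PCM1, and 82.6 and 81.2 in Myc, so at both genes the Myc values overlapped those of the other libraries.

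In the list of calcium handling and excitation genes, 3 of 16 genes were nearest to a region without Myc, namely Cacna1c, Kcnh2 and Ryr2, with 5 of their list's 189 Input and PCM1 regions (2.65%), 3 of which are the Cacna1c regions above. The background over all genes was 2.01%, and over all Input and PCM1 regions 0.892%. The Kcnh2 peak ranked at 54.8 and 23.3 in Input and 50.9 and 47.7 in PCM1. The Ryr2 peak, in an intron of the gene of the sarcoplasmic reticulum calcium release channel, ranked at 12.9 and 7.88 in Input and 9.43 and 39.0 in PCM1, near the bottom of 3 of the 4 lists. At Kcnh2 and Ryr2, as at Cacna1c, the highest percentile over the regions of all 6 libraries was lower in both Myc libraries than in the other 4. For Kcnh2 it was 98.2 and 97.4 in Input, 98.4 and 97.4 in PCM1, and 94.2 and 94.0 in Myc. For Ryr2 it was 99.3 and 98.9 in Input, 99.2 and 99.1 in PCM1, and 95.7 and 95.2 in Myc.

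Of 18 sarcomere and natriuretic peptide genes, Myh6 was the only one with a region, which was 1 of the list's 99 Input and PCM1 regions (1.01%). It lies in an intron at chr14:54956498-54956916, 2279 bp from a Myc peak. Its pileup was 247 and 54 in Input and 122 and 123 in PCM1, the highest of the 456 in Input replicate 1 and both PCM1 libraries. Its fold was only 2.68 and 2.51 in Input and 2.50 and 2.57 in PCM1, since the local background was so high, and it ranked at 69.2 and 30.3 in Input and 66.2 and 66.8 in PCM1. Of 16 cardiac transcription factor genes, Gata6 had 1 region, 1 of 169 (0.592%). It lay 115172 bp upstream, and its peak ranked at 51.2 and 22.0 in Input and 13.5 and 20.8 in PCM1. None of 18 heart energy metabolism genes was nearest to one, with 0 of 104 regions. Slc27a4 and Etfb, among the 20 strongest, are outside that list. No share of such genes over all genes was taken, so nothing is read from them. The Etfb peak, at the gene of a subunit that takes electrons from fatty acid oxidation, ranked at 62.2 and 56.1 in Input and 64.3 and 50.9 in PCM1.

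Together, 5 of 68 genes of the 4 heart muscle lists (7.35%) and 3 of 111 genes of the other 9 lists (2.703%) were nearest to a region without Myc, beside 2.01% of all genes. Counted by region, the 4 heart muscle lists held 7 of 561 Input and PCM1 regions (1.25%), and the other 9 lists 3 of 400 (0.75%), on either side of the 0.892% over all such regions. The 3 others were Myh11, the smooth muscle myosin gene, Bnc1, a zinc finger gene of the epicardial list, and Acta1, skeletal alpha-actin, which the neonatal heart also expresses. The Acta1 peak, 69 bp upstream of the TSS with a CArG box in its window, ranked at 35.4 and 21.7 in Input and 41.8 and 50.5 in PCM1, higher in both PCM1 libraries. The Myh11 peak ranked at 36.6 and 24.7 in Input and 11.1 and 27.8 in PCM1, and the Bnc1 peak at 42.2 and 10.04 in Input and 31.6 and 37.1 in PCM1. The fibroblast, endothelial, immune, erythroid, Schwann cell and neuron, and cell cycle lists had none, with 0 of 59, 99, 17, 7, 21 and 83 Input and PCM1 regions. The counts on these lists are small, and they rose to 7 to 16 heart muscle genes when any 1 library was left out, as the number of all genes nearest to a region rose from 440 to between 489 and 1283.

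Beside Cacna1c, the genes with the most regions had 2 each, led by Cxxc5, a CXXC zinc finger gene, Ptpn11, the phosphatase SHP2, Mlip, a muscle gene whose protein binds A-type lamins, Pde11a, a phosphodiesterase gene, and Frmd8. The Mlip peaks ranked at 61.5 and 31.4 in Input and 54.8 and 29.1 in PCM1, and at 62.0 and 23.9 in Input and 41.3 and 50.5 in PCM1. One of them was 170 bp from a Myc peak. The Pde11a peaks stood in quiet surroundings, with local background between 1.00 and 1.37 times that of the genome, and ranked at 54.5 and 27.8 in Input and 42.5 and 28.7 in PCM1, and at 39.9 and 26.8 in Input and 38.3 and 33.0 in PCM1. At Cxxc5 the local background was 17.5 and 18.1 times that of the genome in PCM1 at the stronger region. In each of these genes Input replicate 1, the deepest library, gave the higher percentile of the Input pair, as it did over the 456 as a whole.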

How the data were processed

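The authors made 6 Omni-ATAC-Seq libraries. Per the labels and the study's methods, quality was checked with FastQC 0.11.5, reads were trimmed with fastq-mcf and mapped to mm10 with Bowtie2 2.3.3.1, duplicates were marked with Picard 2.2.1, blacklisted regions were removed with bedtools 2.7.1, alignments were shifted for Tn5, and peaks were called in each library by itself with MACS2 2.1.0.20160309 at a q-value threshold of 0.05. The deposited lists give for each peak the authors' score (10 times the -log10 q-value, without its decimals), the fold, the -log10 p-value and -log10 q-value, and the summit offset, which is another deposited value. The fold was read as the ratio of pileup to local background after the same constant is added to both, so it is lower than their plain ratio.

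From these, intervals were merged with bedtools 2.31.1, and Python 3.11.15 (pandas 2.3.3, numpy 2.4.6, scipy 1.17.1, pysam 0.24.0) gave the further values. Plots were drawn with matplotlib 3.10.9. Percentiles are ranks by -log10 q within a library. Pileups were solved from the fold and the p-value, and at least 99.999% came out whole within 0.02. Read depth itself is not in the lists. Genes are protein-coding genes of GENCODE M21 on GRCm38 (mm10), with 21853 genes, and a region goes to the gene with the nearest TSS. The 13 gene lists held 180 genes, of which 179 were found. The members, lists and motifs were chosen with earlier results of these data known.

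Genes were named by a rule: the 20 strongest regions, the 6 genes with the most regions, up to 3 genes per list, and the loci of Nkx2-5, Gt(ROSA)26Sor, Sun1, Pcm1, Myh6 and Col3a1. Others are named as members of a small count. No test was run, since presence of a peak was the rule and 2 libraries against 2 cannot give an exact permutation p-value below 0.333. The merging and the pileup solution were tested on simulated data. Alternatives were a q-value of 0.01, equal lists, other overlap, widths and windows, and each library left out in turn.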

Additional observations from a re-analysis of the deposited data

How the results depend on the processing

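The 456 regions depend on the peak lists. With equal lists there were 1248 regions (2.59% of the Input and PCM1 regions) and 1114 genes, 12 of them on the heart muscle lists, 7.45% had a Myc peak within 500 bp, 2.56% had the MEF2 motif, 5.61% had a high local background in all 4 libraries, and 26.6% of the genes ranked lower in Myc at their other regions, as did 16.3% of all genes. Leaving out a library, which loosens the rule, gave 506 to 1441 regions (0.987% to 2.82%) and 489 to 1283 genes, 7 to 16 of them on the heart muscle lists. It also gave 3.89% to 5.93% within 1 kb of a TSS, 11.0% to 15.4% with a Myc peak within 500 bp, 1.27% to 2.36% with MEF2, 5.62% to 8.10% with a high local background, and 13.7% to 23.7% of genes ranked lower in Myc, against 7.71% to 13.3% of all genes. The planned overlap alternative changed nothing, since a merged region always covers its peaks. When a peak had to cover 0.5 or more of its merged region, an alternative added after the data were seen, 510 regions were left (1.41%), 49.0% of them had a Myc peak within 500 bp and 10 heart muscle genes were nearest to one. Other widths gave 14.0% within 3 kb and 3.07% within 200 bp of a TSS, 26.8% with a Myc peak within 1 kb, 12.3% with GATA within 100 bp, and, with a TSS within 10 kb, 148 genes of which 3 were heart muscle genes. The q-value of 0.01 moved no result beyond its spread or interval. The median strength was 12.9 to 18.1 under the other alternatives and 23.9 when a peak had to cover 0.5 or more of its region. The lists hold no pileup where no peak was called, so a Myc signal under the threshold and no signal cannot be told apart. No paired analysis was possible because no result comes from a test.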
